A study of Mus musculus with 39 samples.

Results

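Cell cycle and DNA replication genes were followed as a group of 46 named genes in bulk RNA-seq of the mouse gut, out of 34574 named entries in the deposited tables. They are standard proliferation genes of 11 roles. They were taken by name and not by level, but with earlier results of these data known. The series compared 6 mice of the inbred strain BALB/cJ with 7 mice of the inbred strain C57BL/6J, and each mouse gave 1 library each of colon, ileum and a piece named duodenum/jejunum, 39 libraries in all. The labels give no treatment, age or sex, and no manipulated allele. Levels are TPM, an estimate of transcript abundance that is corrected for transcript length and scaled to the same total in every library. A log2 change is a difference of mean log2(TPM + 1), BALB/cJ over C57BL/6J or, between tissues, the tissue named first over the other, and a gene is called where limma, a linear model fitted across all genes, gave an adjusted p under 0.05. All 46 genes were listed and tested in every comparison, so no member was lost to a filter on low values. Region markers went with the tissue names except in the small intestine libraries of C57BL/6J mouse 2: 4 ileal markers summed to 205 TPM in its ileum library, against 4133 to 8942 TPM in the other C57BL/6J ileum libraries, and to 6542 TPM in its duodenum/jejunum library, against 111.5 to 167.5 TPM in the others. Proximal markers summed to 1939 TPM in its ileum library, against 103.8 to 479.6 TPM in the others. In its duodenum/jejunum library the proximal markers (936 TPM) lay within the range of that group, 693.6 to 1574 TPM, and the pancreas markers summed to 623.6 TPM, as the label would have it. Counts of members called in comparisons that use these libraries are given with and without them, while single values and pathway counts include them unless stated.

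The intestinal lining is renewed from dividing cells in the crypts. A cell first licenses its replication origins by loading the MCM helicase, copies its DNA in S phase with a supply of new deoxynucleotides, and then separates the chromosomes in mitosis with the help of cyclin B, its kinase CDK1, spindle motors and the anaphase-promoting complex. Most of these genes are transcribed only in cycling cells, S phase genes under E2F factors and mitosis genes later, through CHR elements bound by the DREAM and MuvB complexes and neighbouring CCAAT boxes bound by NF-Y. Germinal centre B cells, which the gut wall also holds, use the same genes. In bulk tissue, fewer dividing cells and less RNA per dividing cell cannot be told apart.

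The letters of these elements were searched on both strands in promoter windows of 300 bases, from 250 bases before the RefSeq start to 50 after it (GRCm38.p6), which were at hand for 38 of the 46 genes in 41 windows. The CHR element, spelled TTTGAA with the variant form being TTCGAA, was in 78.3% of the 23 windows of mitosis genes and dividing-cell markers and in 16.7% of the 18 windows of S phase genes, against 19.2% of all 32851 windows. The E2F element was searched in the spelling TTCCCGC with the further spellings being TTGGCGC followed by the spelling TTGCCGC plus finally the spelling TTCGCGC, and was in 3 of the 23 mitosis and marker windows and in 66.7% of the S phase windows, against 9.57% of all windows. The NF-Y element (CCAAT) was in 82.6% of the mitosis and marker windows and 66.7% of the S phase windows, against 37.4% of all windows. Letters of 1 element on both strands can overlap, and an E2F element read on the opposite strand can share bases with an NF-Y element. These are matches of letters and not binding sites. The windows below are those of Ube2c and Ccnb2, 2 mitosis genes that were lower in the BALB/cJ colon, of Mcm6, the helicase gene that was lower there too, and of Mcm3, a helicase gene that was not called. Capitals mark CHR, E2F and NF-Y letters on either strand.
Ube2c: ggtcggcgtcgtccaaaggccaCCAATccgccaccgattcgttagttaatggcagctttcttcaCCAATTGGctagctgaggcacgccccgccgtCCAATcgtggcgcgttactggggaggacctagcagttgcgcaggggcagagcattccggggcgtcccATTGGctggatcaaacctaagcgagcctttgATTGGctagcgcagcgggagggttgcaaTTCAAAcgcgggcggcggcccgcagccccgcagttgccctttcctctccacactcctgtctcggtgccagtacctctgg
Ccnb2: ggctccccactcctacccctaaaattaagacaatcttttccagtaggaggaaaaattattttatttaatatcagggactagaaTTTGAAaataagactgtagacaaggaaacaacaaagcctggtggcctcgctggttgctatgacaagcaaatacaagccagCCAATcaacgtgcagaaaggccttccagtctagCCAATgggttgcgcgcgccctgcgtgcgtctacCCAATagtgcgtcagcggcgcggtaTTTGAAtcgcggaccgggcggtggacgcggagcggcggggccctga
Mcm6: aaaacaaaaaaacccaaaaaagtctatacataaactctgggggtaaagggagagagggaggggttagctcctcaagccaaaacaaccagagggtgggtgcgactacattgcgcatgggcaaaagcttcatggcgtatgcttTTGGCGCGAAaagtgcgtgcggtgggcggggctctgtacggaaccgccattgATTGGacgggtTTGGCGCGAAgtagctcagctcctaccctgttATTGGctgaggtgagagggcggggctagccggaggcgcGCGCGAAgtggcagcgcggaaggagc
Mcm3: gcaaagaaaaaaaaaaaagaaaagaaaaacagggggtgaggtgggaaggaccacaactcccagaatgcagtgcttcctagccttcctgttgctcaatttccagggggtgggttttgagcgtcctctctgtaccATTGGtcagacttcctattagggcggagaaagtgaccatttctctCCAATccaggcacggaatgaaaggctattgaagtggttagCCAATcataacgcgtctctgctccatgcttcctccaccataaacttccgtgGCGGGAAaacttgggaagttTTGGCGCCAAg
The Ube2c window lies at chr2:164769679-164769978 on the plus strand and holds 1 CHR and 6 NF-Y matches. The Ccnb2 window lies at chr9:70421505-70421804 on the minus strand and holds 2 CHR and 3 NF-Y matches. Both Mcm windows are on the minus strand. That of Mcm6 at chr1:128359656-128359955 holds 5 E2F and 2 NF-Y matches. That of Mcm3 at chr1:20820263-20820562 holds 3 E2F and 3 NF-Y matches, and neither holds a CHR match.

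**Figure D1:**
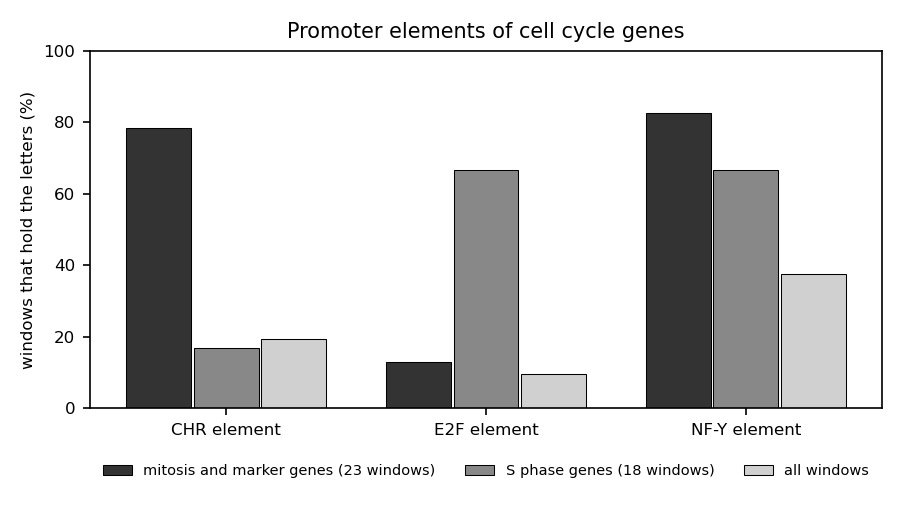
Share of promoter windows (percent, y axis) that hold the letters of 3 elements, for 23 windows of mitosis and dividing-cell marker genes, 18 windows of S phase genes and all 32851 windows. CHR letters were in 78.3% of the mitosis windows and E2F letters in 66.7% of the S phase windows.

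The replication clamp gene Pcna had the highest mean level of the 46 genes and the origin licensing gene Cdc6 the lowest. Pcna averaged 124.1 TPM over the 6 group means, with libraries between 95.5 and 162.2 TPM. Cdc6 averaged 4.28 TPM, with libraries between 1.85 and 8.19 TPM. Between the highest and the lowest group a gene differed by 1.26-fold (Pcna) to 2.82-fold (Plk1, a mitotic kinase). The C57BL/6J colon had the highest mean for 18 genes, the BALB/cJ ileum for 17 and the C57BL/6J ileum for 11, while the BALB/cJ duodenum/jejunum had the lowest mean for 27 and the BALB/cJ colon for 10. These ranks are on the TPM scale and include the libraries of C57BL/6J mouse 2. All genes had a median log2 change of 0.24 for colon over ileum in C57BL/6J. With libraries scaled to the same median gene (RLE, below), 22 members were called lower and 1 higher in that colon than in that ileum.

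The BALB/cJ colon had less RNA of mitosis genes than the C57BL/6J colon. Of the 46 genes, 26 were lower, 0 higher and 20 not called in limma at an adjusted p under 0.05, where 10.8% of all 15769 genes tested were lower and 14.5% higher. At an unadjusted p under 0.05 the counts were 29 lower and 0 higher. The median log2 change was -0.38 over the members and 0.02 over all genes. Of the 24 mitosis genes 19 were lower (median -0.47), against 2 of the 12 helicase, licensing and fork genes (median 0.01) and 3 of the 8 other S phase genes.

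Ube2c, the ubiquitin-conjugating enzyme of the anaphase-promoting complex (chr2:164769898-164778822 on GRCm38), reached 24.5, 27.7 and 36.3 TPM (lowest, median and highest) in BALB/cJ colons and 40.2, 45.97 and 54.2 TPM in C57BL/6J colons. Every BALB/cJ library lay below every C57BL/6J library. The means were 29.2 ± 4.97 and 47.2 ± 5.77 TPM (SD, n = 6 and 7), a log2 change of -0.68 ± 0.10 (SE; adjusted p 0.000233). Kif11, the kinesin that pushes the spindle poles apart (chr19:37376403-37421859), reached 11.6, 15.01 and 19.1 TPM in BALB/cJ and 21.1, 22.9 and 30.4 TPM in C57BL/6J colons, again without overlap. Its log2 change was -0.68 ± 0.12 (adjusted p 0.00078), with the BALB/cJ mean 1.63-fold lower. Birc5, which encodes survivin of the chromosomal passenger complex, lay between 22.1 and 33.1 TPM (median 26.04) in BALB/cJ and between 31.8 and 52.9 TPM (median 38.2) in C57BL/6J colons. Here 1 BALB/cJ library lay above the lowest C57BL/6J library, and the log2 change was -0.61 ± 0.13 (adjusted p 0.00304). Aurkb, the kinase of the same complex, was at 11.8, 15.2 and 23.5 TPM in BALB/cJ and 19.01, 26.9 and 34.9 TPM in C57BL/6J colons, with overlap and a log2 change of -0.59 ± 0.16 (adjusted p 0.0143). Tpx2, a spindle assembly factor that activates Aurora A, was at 9.45, 12.2 and 17.3 TPM in BALB/cJ against 14.6, 18.1 and 23.9 TPM in C57BL/6J colons, with a log2 change of -0.57 ± 0.15 (adjusted p 0.0127). Bub1, a kinase of the spindle checkpoint, was at 5.56, 7.84 and 9.50 TPM in BALB/cJ against 9.70, 11.7 and 13.9 TPM in C57BL/6J colons without overlap, with a log2 change of -0.56 ± 0.13 (adjusted p 0.00464).

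**Figure D2:**
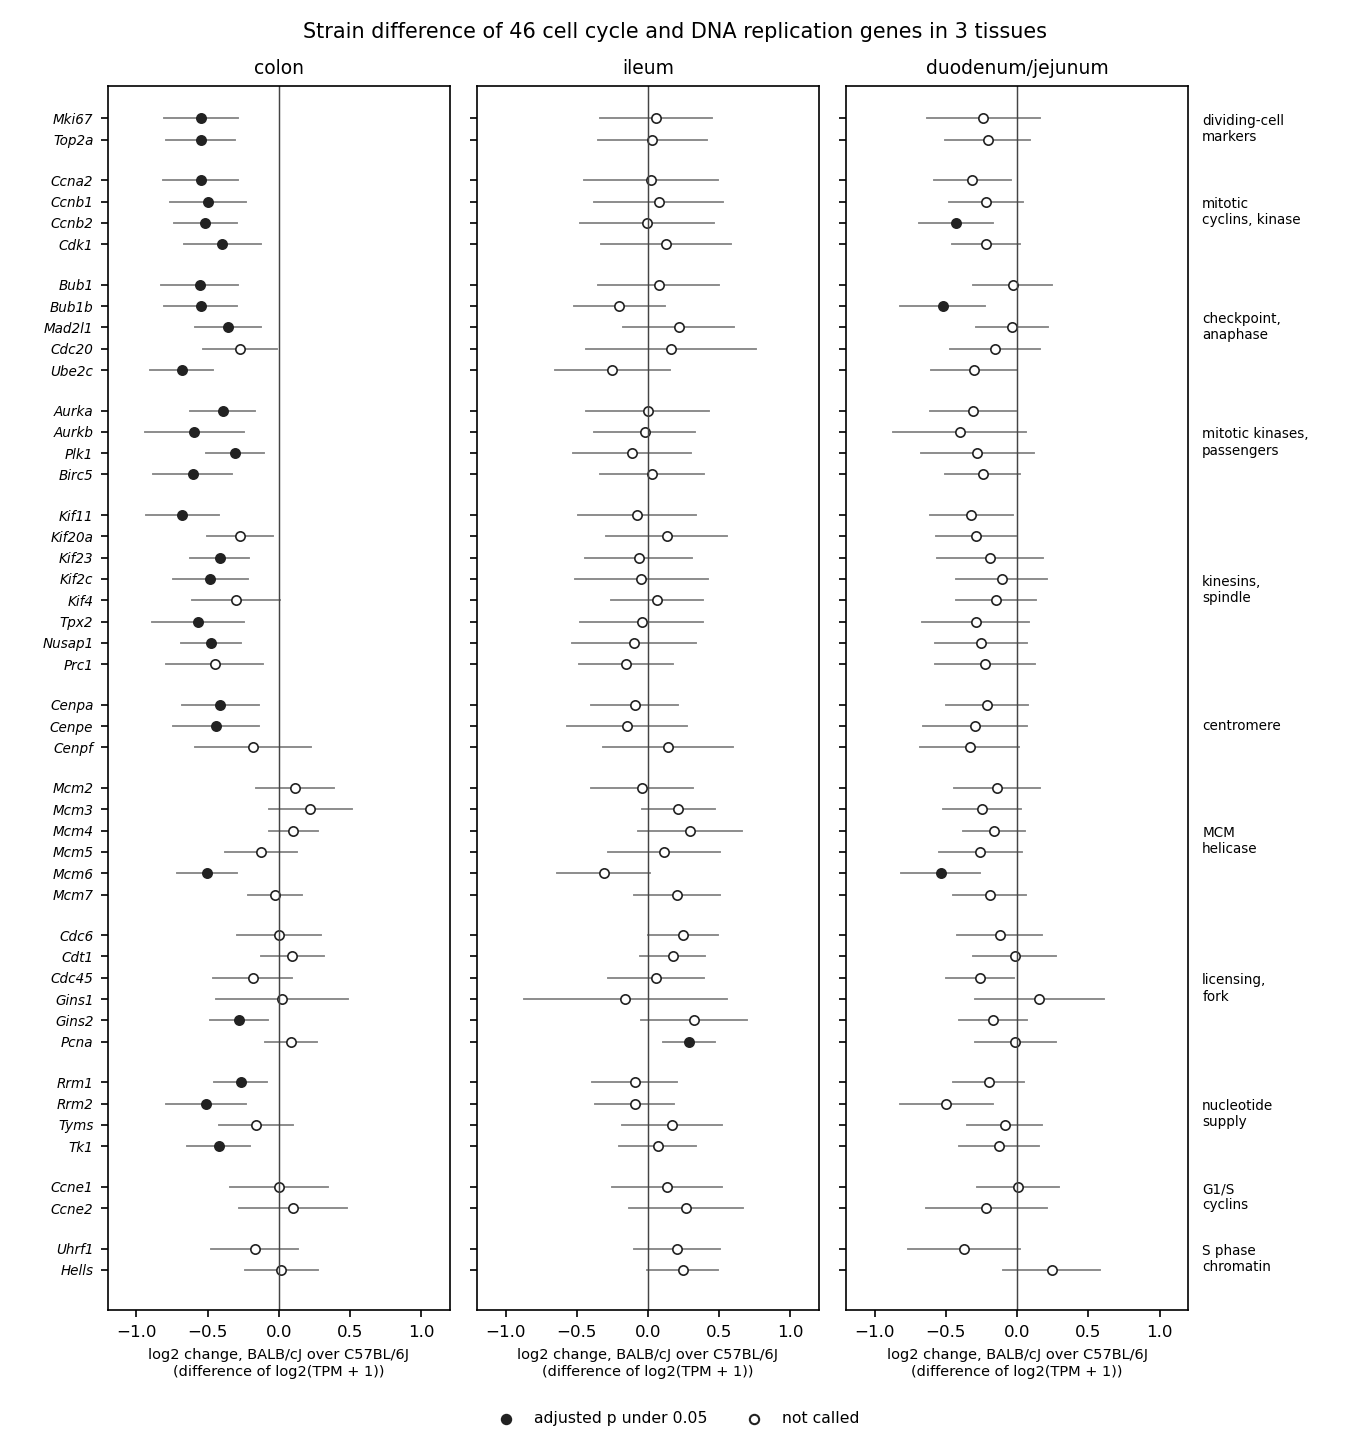
Strain difference of each of the 46 genes (log2 change of TPM + 1, BALB/cJ over C57BL/6J, x axis) in 3 tissues, with points for the limma estimate, lines for its 95% interval and filled points for an adjusted p under 0.05; genes run down the page by role. The mitosis genes lie left of 0 in the colon, the helicase and fork genes lie around 0 there except Mcm6 and Gins2, and the ileum points scatter around 0.

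By role, both dividing-cell markers fell in BALB/cJ colons, Mki67 at 50.3 ± 11.1 TPM in BALB/cJ against 73.0 ± 8.85 TPM in C57BL/6J and the topoisomerase gene Top2a at 62.4 ± 10.01 TPM in BALB/cJ against 91.7 ± 14.3 TPM in C57BL/6J. All 4 genes of the mitotic cyclins and CDK1 were lower, such as Ccnb2 at 25.2 ± 3.39 TPM in BALB/cJ against 36.5 ± 5.28 TPM in C57BL/6J. So were 4 of 5 checkpoint and anaphase genes, with Cdc20 (log2 change -0.27, adjusted p 0.123) not called, all 4 mitotic kinase and passenger genes, 5 of 8 kinesin and spindle genes and 2 of 3 centromere genes. Of the nucleotide supply genes 3 of 4 were lower, among them Rrm2, the S phase subunit of ribonucleotide reductase, at 10.7 ± 1.62 TPM in BALB/cJ against 15.8 ± 3.38 TPM in C57BL/6J. Among the roles that act on the DNA itself few genes were called. Mcm6 of the 6 helicase genes and Gins2 of the 6 licensing and fork genes were lower, and 0 of the 2 G1/S cyclins and 0 of the 2 S phase chromatin genes were called. Mcm3 was at 9.58, 14.96 and 17.2 TPM in BALB/cJ and 8.88, 12.3 and 15.98 TPM in C57BL/6J colons, ranges that overlapped (log2 change 0.22 ± 0.14, adjusted p 0.267). Mcm6 lies on chr1:128331590-128359664 and was at 16.3, 21.2 and 24.9 TPM in BALB/cJ and 27.2, 30.2 and 35.5 TPM in C57BL/6J colons, without overlap (log2 change -0.50 ± 0.10, adjusted p 0.00148). In all, 7 genes had no overlap between the strains in the colon, all lower in BALB/cJ: Bub1, Ccnb2, Kif11, Mcm6, Nusap1, Top2a and Ube2c. Among all genes tested 4.97% had no overlap and were lower and 6.49% had none and were higher.

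Per library, the mean log2(TPM + 1) of the 24 mitosis genes was 4.07 to 4.64 (median 4.32) in BALB/cJ colons and 4.58 to 5.03 (median 4.68) in C57BL/6J colons, overlapping in 1 BALB/cJ library, that of mouse 6. The same mean over the 12 helicase, licensing and fork genes was 3.75 to 4.17 in BALB/cJ and 3.74 to 4.22 in C57BL/6J colons, so the strains overlapped over nearly the whole range. The difference between both means was 0.20 to 0.77 in BALB/cJ colons and 0.59 to 1.02 in C57BL/6J colons. In the ileum it was 0.01 to 0.42 in BALB/cJ and 0.14 to 0.56 in C57BL/6J, and in the duodenum/jejunum 0.03 to 0.31 in BALB/cJ and 0.20 to 0.32 in C57BL/6J. These means describe chosen genes and carry no test.

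**Figure D3:**
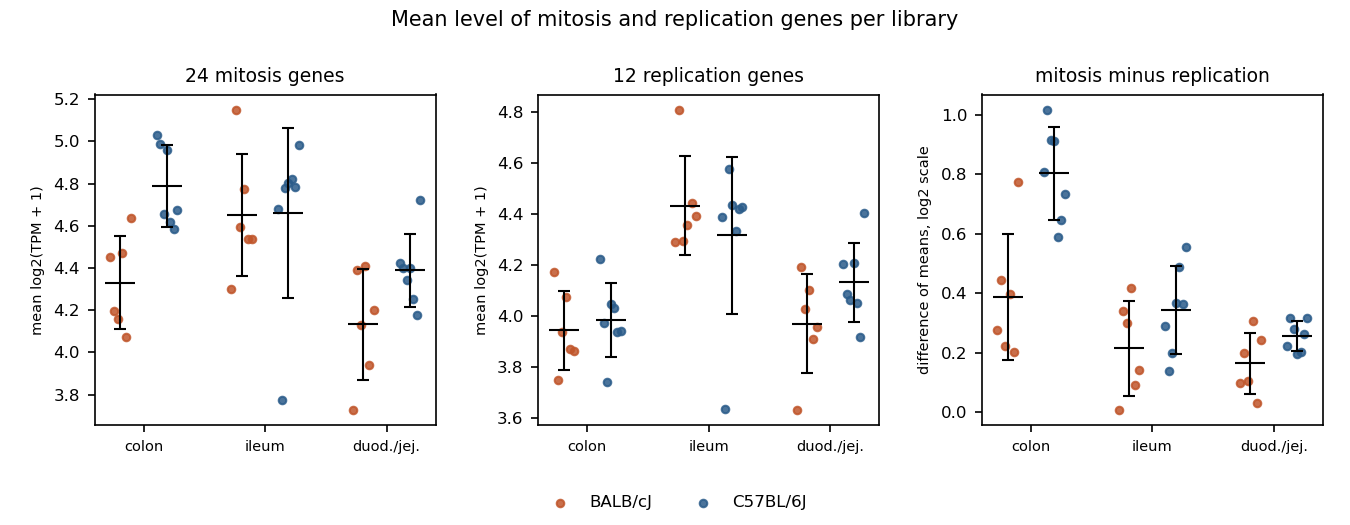
Mean log2(TPM + 1) per library (y axis) of 24 mitosis genes, of 12 helicase, licensing and fork genes, and the difference of both means, by tissue with BALB/cJ left of C57BL/6J; points are libraries, bars the group mean ± SD. In the colon the mitosis means of C57BL/6J lie between 4.58 and 5.03 and those of BALB/cJ between 4.07 and 4.64, while the replication means overlap.

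Of the genes with a promoter window, 13 of the 20 with a CHR match and 9 of the 18 without fell in BALB/cJ colons, with median log2 changes of -0.41 and -0.22. With an E2F match 6 of 13 were lower, without it 16 of 25 (medians -0.17 and -0.42). Among all genes tested in the colon 10.8% were lower, and the share among all genes with each match was not counted. The matches largely follow role: CHR was in 78.3% of mitosis and marker windows and 16.7% of S phase windows. Match and role can therefore not be told apart here. These shares were not tested.

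Of 38 other mitosis genes tested 26 were lower and 0 higher in the BALB/cJ colon (36 lower and 0 higher at an unadjusted p under 0.05), with a median log2 change of -0.45. Among all genes tested in the colon 10.8% were lower and 14.5% higher. Cdca3, which promotes the entry into mitosis through WEE1 degradation, was at 25.4 ± 3.95 TPM in BALB/cJ against 55.4 ± 10.6 TPM in C57BL/6J, 2.18-fold lower (adjusted p 1.6e-05). Pttg1, the securin that holds separase until anaphase, was 1.54-fold lower (adjusted p 0.00014), and Anln, the anillin of the cleavage furrow, 1.55-fold lower (adjusted p 0.000338). Of 27 other replication genes 4 were lower and 1 higher. The largest of these changes was that of Orc1, the large subunit of the origin recognition complex, at 2.95 ± 0.49 TPM in BALB/cJ against 6.56 ± 0.46 TPM in C57BL/6J (2.23-fold lower, adjusted p 1e-06), with Clspn 1.35-fold and the DNA ligase gene Lig1 1.27-fold lower (adjusted p 0.00716 and 0.0249). Orc1 was not called in the ileum or the duodenum/jejunum, and its strain difference differed between colon and ileum by -1.19 ± 0.23 on the log2 scale (adjusted p 0.000957) and between colon and duodenum/jejunum by -0.80 ± 0.23 (adjusted p 0.034). Of 15 E2F, DREAM and FOXM1 regulators only the repressor E2f8 was called (1.55-fold lower, adjusted p 0.00495). Of 12 D cyclins, other cyclin-dependent kinases and CDC25 phosphatases 4 were lower and 1 higher, with Ccnd2, Cks2 and Cdc25b 1.32-fold, 1.26-fold and 1.26-fold lower (adjusted p 0.00853, 0.01 and 0.0135). Of 10 kinase inhibitors and p53 arrest genes 3 were higher and 0 lower (3 higher and 3 lower at an unadjusted p under 0.05): Trp53inp1 and Ccng1, 2 p53 targets, 1.33-fold and 1.14-fold (adjusted p 0.00114 and 0.0129), and Cdkn2b, an inhibitor of CDK4 and CDK6, 1.24-fold (adjusted p 0.0258).

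Other markers moved with the strains in the colon, where 10.8% of all genes tested were lower and 14.5% higher. Of 12 B cell and germinal centre markers tested 10 were higher in BALB/cJ, with a summed level of 73.4 to 111.3 TPM in BALB/cJ and 34.7 to 55.2 TPM in C57BL/6J, and at most 1 of the listed markers was at 0 in a library. The germinal centre genes Gcsam and Mef2b were too low to be tested, and Bcl6 and S1pr2 were not called. Of 10 epithelial markers 3 were lower (7931 to 8693 TPM in BALB/cJ against 8444 to 8876 TPM in C57BL/6J), of 10 crypt stem cell markers 2 (279 to 338 TPM in BALB/cJ against 338 to 393 TPM in C57BL/6J) and of 10 smooth muscle markers 4 (3331 to 4856 TPM in BALB/cJ against 4371 to 5398 TPM in C57BL/6J). Of 10 markers of differentiated absorptive cells 3 were lower and 2 higher, and their sum did not overlap (4012 to 4900 TPM in BALB/cJ against 4911 to 5689 TPM in C57BL/6J). In contrast 7 of 10 T cell markers were higher (37.6 to 50.7 TPM in BALB/cJ against 19.4 to 34.6 TPM in C57BL/6J). With the epithelial markers as a covariate 0 members were called, the median log2 change was -0.34 and the median SE 0.241, against 0.122 without it. With the B cell markers as a covariate 1 member, Gins2, was called, with a median of -0.52 and a median SE of 0.323. Pancreatic transcripts summed to 1022 and 443.5 TPM in BALB/cJ mice 3 and 5, and to 114.9 to 247.4 TPM in the other colon libraries. Without both mice 13 members were lower, with a median of -0.28, and the part of the pancreatic transcripts was not tested. Each covariate was the mean log2(TPM + 1) of its markers per library. The summed B cell markers did not overlap between the strains, so the fit with these markers as a covariate cannot separate them from strain. The summed epithelial markers overlapped only in part, so that fit may not separate them from strain either. In both covariate fits the median SE rose, so fewer calls need not mean a smaller strain difference. The part of all these markers in the strain difference was not tested. Of the 26 calls 19 held in each of 13 fits without 1 mouse.

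In the ileum, Pcna was the 1 member called, higher in BALB/cJ, 0 were lower and 45 not called, where 17.2% of all 15537 genes tested were higher and 3.17% lower. At an unadjusted p under 0.05, 2 genes were higher and 0 lower. Pcna (chr2:132249162-132253314) was at 128.8, 140.1 and 151.9 TPM in BALB/cJ and 95.5, 117.0 and 138.8 TPM in C57BL/6J ileum, with overlap. Its log2 change was 0.29 ± 0.09 (adjusted p 0.032). All genes had a median change of 0.17 in the ileum. After RLE scaling, which puts the median gene of every library at 1 level, the change of Pcna was 0.09 (adjusted p 0.523), and Mcm6 was called lower instead. No member was without overlap in the ileum, where 8.37% of genes were so and higher and 1.44% lower.

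Ube2c was at 40.2 ± 10.6 TPM in BALB/cJ and 47.9 ± 10.2 TPM in C57BL/6J ileum (log2 change -0.25 ± 0.19), and Kif11 at 21.1 ± 4.57 TPM in BALB/cJ and 22.7 ± 5.42 TPM in C57BL/6J (-0.08 ± 0.19). Of the ileum libraries, that of C57BL/6J mouse 2, whose region markers go against its name, was the lowest of 13 libraries for 40 of the 46 genes, and that of BALB/cJ mouse 2 was the highest for 38. The share of all genes with their extreme in these libraries was not counted, so the counts may not be particular to the members. Without C57BL/6J mouse 2 Pcna was higher (log2 change 0.24, adjusted p 0.0312) and Mcm6 (-0.43, adjusted p 0.0102) and Bub1b were lower. Leaving out other single mice gave 0 or 1 call, and leaving out BALB/cJ mouse 1, 2, 3, 5 or 6 or C57BL/6J mouse 1, 4 or 6 ended the call of Pcna. B cell markers summed to 150.2 to 306.2 TPM in BALB/cJ and 50.1 to 206.8 TPM in C57BL/6J ileum, with BALB/cJ mouse 2 at the top, and 5 of 15 tested were higher in BALB/cJ. With them as a covariate 4 members were called, all lower (Cenpe, Mcm2, Mcm6 and Rrm1). Of the other pathway genes in the ileum 6 of 102 were higher and 0 lower, where 17.2% of all genes tested were higher and 3.17% lower. Higher were the arrest genes Ccng1, Cdkn1b and Btg2 (1.41-fold, 1.37-fold and 1.25-fold; adjusted p 5e-05, 0.00197 and 0.0378). So were the GINS subunit gene Gins4 and the licensing inhibitor gene Gmnn (1.47-fold and 1.22-fold; adjusted p 0.00274 and 0.0295), and Pttg1 (1.39-fold; adjusted p 0.0449). These folds are on the TPM scale, where all genes had a median log2 change of 0.17.

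In the duodenum/jejunum the lower genes in BALB/cJ numbered 3, the higher ones 0, and 43 had no call, where 4.80% of all 15306 genes tested were lower and 4.70% higher. At an unadjusted p under 0.05, 9 were lower and 0 higher, and 43 of the 46 estimates were negative. The library of BALB/cJ mouse 1 was the lowest of 13 for 36 of the 46 genes and that of C57BL/6J mouse 7 the highest for 34. Here too the share of all genes was not counted. The median log2 change was -0.22, and -0.14 without BALB/cJ mouse 1. That library held 5509 TPM of pancreatic transcripts, against 5.04 to 895.4 TPM in the other BALB/cJ and 6.59 to 6109 TPM in the C57BL/6J libraries; their part was not tested. Mcm6 was at 16.7, 25.3 and 26.7 TPM in BALB/cJ and 28.8, 36.1 and 42.7 TPM in C57BL/6J, without overlap (log2 change -0.54 ± 0.13, adjusted p 0.0144). Bub1b, the checkpoint protein BubR1, was at 9.79, 14.5 and 16.6 TPM in BALB/cJ and 14.8, 19.9 and 26.99 TPM in C57BL/6J (-0.52 ± 0.14, adjusted p 0.0258), with overlap. Ccnb2, a mitotic B cyclin, was at 11.9, 18.5 and 20.8 TPM in BALB/cJ and 21.7, 23.6 and 29.4 TPM in C57BL/6J (-0.43 ± 0.12, adjusted p 0.0377), without overlap. Among all genes 2.47% were without overlap and lower and 2.89% without and higher. Of these calls only that of Mcm6 held without each single mouse: without BALB/cJ mouse 1, or C57BL/6J mouse 5 or 7, 1 member was called. Without BALB/cJ mice 3 and 5, or with either marker list as a covariate, 1 member was called as well. Without the library of C57BL/6J mouse 2, 3 were lower, with Ccnb2 no longer called and Rrm2 called instead. Of the other pathway genes tested, Cdca3 was lower (23.9 ± 5.36 TPM in BALB/cJ against 44.7 ± 6.40 TPM in C57BL/6J, adjusted p 0.000522) and 0 of 102 were higher.

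Among the helicase genes Mcm6 was the 1 called between strains. Its log2 change was -0.50 in the colon, -0.31 ± 0.15 in the ileum (adjusted p 0.157) and -0.54 in the duodenum/jejunum, while the other 5 subunits of the ring lay between -0.13 and 0.22, -0.04 and 0.30, and -0.26 and -0.14 in the same order of tissues. In the ileum Mcm6 was at 24.5, 29.95 and 38.8 TPM in BALB/cJ and 22.6, 38.9 and 48.9 TPM in C57BL/6J, with the low C57BL/6J value that of mouse 2. No member was called in all 3 tissues.

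**Figure D4:**
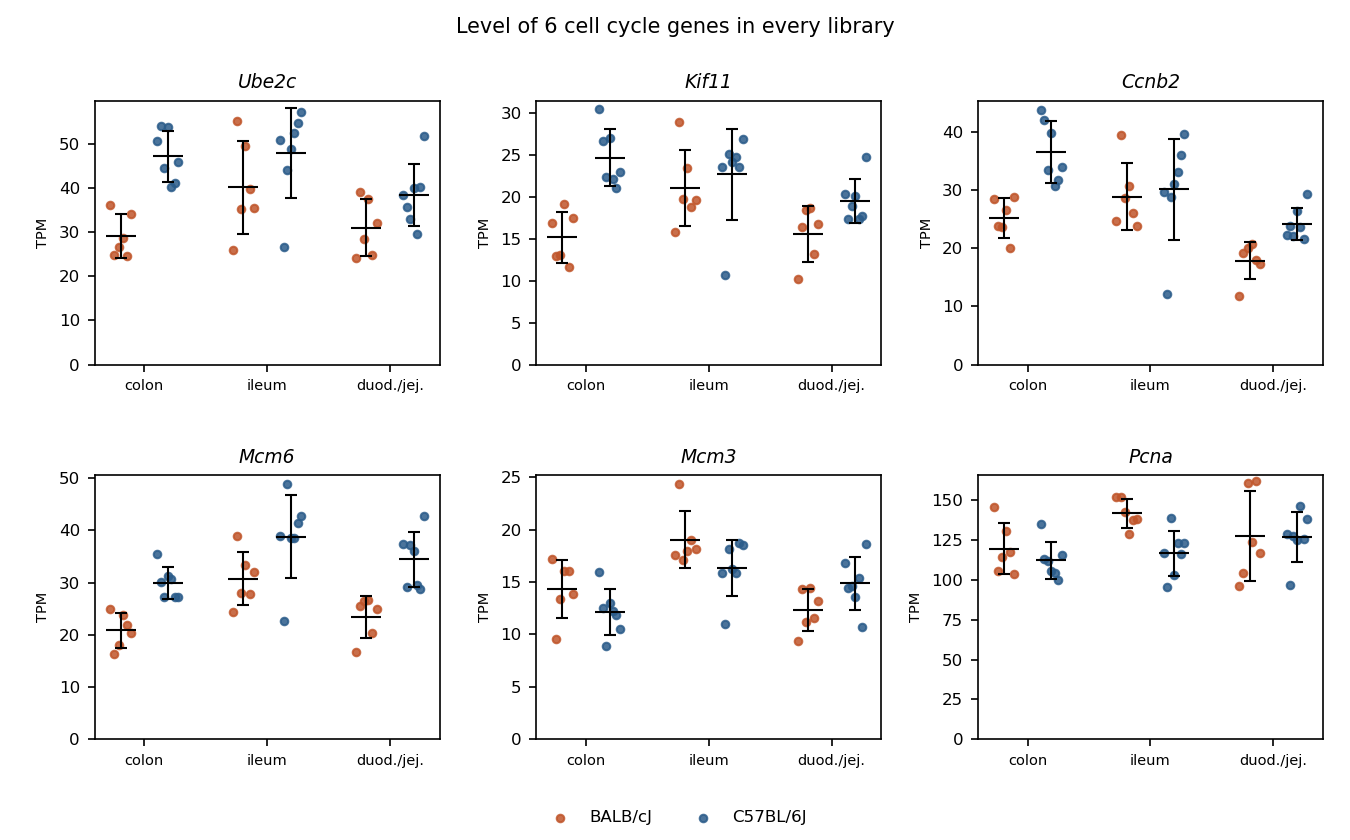
TPM of 6 genes in every library (y axis from 0), by tissue with BALB/cJ left of C57BL/6J; points are libraries and bars the group mean ± SD. Ube2c, Kif11, Ccnb2 and Mcm6 separate the strains in the colon without overlap, while Mcm3 and Pcna overlap there.

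Whether the strain difference itself differed between tissues was tested in 1 fit of all 39 libraries. No member was called for colon minus ileum, colon minus duodenum/jejunum or ileum minus duodenum/jejunum, where 4.08%, 5.59% and 3.92% of all genes were called in either direction. At an unadjusted p under 0.05 the counts were 14, 2 and 5 members. Without the libraries of C57BL/6J mouse 2 the called counts were 0 in each of the 3 tests too. With the mouse as a block Mki67 was called for colon minus ileum (-0.60, adjusted p 0.047). Gins2 had the smallest adjusted p of the members (-0.60 ± 0.19 for colon minus ileum, adjusted p 0.0574).

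Between tissues, most S phase genes were lower in the colon than in the ileum. Of the 12 helicase, licensing and fork genes 9 were lower and 0 higher in BALB/cJ, and 8 lower and 1 higher in C57BL/6J. Of the 8 other S phase genes 7 were lower and 0 higher in BALB/cJ, and 5 lower and 1 higher in C57BL/6J. Over all members in BALB/cJ 24 of 46 genes were lower in the colon and 1 higher (background 15.8% and 30.3% of 17126 genes), and in C57BL/6J 13 were lower and 3 higher (background 15.2% and 46.5%). Of the 6 helicase genes all 6 fell in BALB/cJ colons and 4 in C57BL/6J colons, and both G1/S cyclins and both S phase chromatin genes were lower in either strain. Of the 24 mitosis genes 7 were lower and 1 higher in BALB/cJ, and 0 lower and 1 higher in C57BL/6J (2 higher and 0 lower at an unadjusted p under 0.05). The test of colon minus ileum above, which called 0 members, is the test of that difference between strains per gene. RLE scaling, which removed a median shift of all genes of 0.11 in BALB/cJ and 0.24 in C57BL/6J, gave 37 lower and 1 higher in BALB/cJ, and 22 lower and 1 higher in C57BL/6J. Without the libraries of C57BL/6J mouse 2, 17 were lower and 3 higher in C57BL/6J. In BALB/cJ, whose contrasts share that fit, 31 were lower and 1 higher.

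Ccne2, a cyclin E gene of the G1/S step, was at 7.32, 9.54 and 12.5 TPM in the colon and 12.3, 20.1 and 30.3 TPM in the ileum of BALB/cJ, and at 6.10, 7.80 and 15 TPM in the colon and 11.8, 15.9 and 20.6 TPM in the ileum of C57BL/6J. The log2 changes were -0.96 ± 0.20 and -0.79 ± 0.19 (adjusted p 0.000175 and 0.000466), with overlap of the highest colon and lowest ileum libraries. Rrm2 (-0.90 ± 0.15) and Uhrf1, which carries DNA methylation through replication (-0.89 ± 0.17), were the other largest falls in BALB/cJ, and Gins1 (-0.82 ± 0.26) and Cdc6 (-0.61 ± 0.12) in C57BL/6J. Plk1 went the other way. It was at 25.3, 28.3 and 36.3 TPM in the colon, 14.3, 18.7 and 29.03 TPM in the ileum and 8.82, 12.6 and 17.5 TPM in the BALB/cJ duodenum/jejunum. In C57BL/6J it was at 30.4, 35.1 and 43.0 TPM, 10.7, 22.7 and 25.5 TPM, and 11.01, 15.2 and 22.2 TPM in the same order. In both strains its colon libraries lay above those of the small intestine, except that 1 BALB/cJ ileum library reached into the colon range, with log2 changes of 0.56 ± 0.18 and 0.75 ± 0.17 over the ileum and of 1.15 ± 0.18 and 1.18 ± 0.17 over the duodenum/jejunum (adjusted p 0.00973, 0.000169, 7.08e-07 and 1.06e-07), and all 4 stayed called after RLE scaling (0.43, 0.46, 0.80 and 0.85). Gins2 and the thymidylate synthase gene Tyms were higher in the colon of C57BL/6J only before RLE scaling (0.49 and 0.42, against 0.22 and 0.13 after it).

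With the duodenum/jejunum as the other tissue, 6 genes were higher and 5 lower in the colon of BALB/cJ (background 49.0% and 14.5%), and in C57BL/6J 15 were higher and 5 lower (background 49.4% and 15.3%). All genes had a median change of 0.29 and 0.28 in these comparisons, and after RLE scaling 2 were higher and 19 lower in BALB/cJ, and 1 higher and 17 lower in C57BL/6J. Without the libraries of C57BL/6J mouse 2 the counts in C57BL/6J were 19 higher and 7 lower, and those in BALB/cJ, through the shared fit, 7 higher and 5 lower. All 5 lower calls of each strain were also lower after RLE scaling. The largest were those of Hells, Rrm2 and Bub1 in BALB/cJ (-0.50 ± 0.14, -0.47 ± 0.15 and -0.39 ± 0.17, the call of Bub1 being lost with no filter on low values) and Ccne2, Cdc6 and Rrm2 in C57BL/6J (-0.64 ± 0.19, -0.49 ± 0.12 and -0.46 ± 0.14). The centromere protein gene Cenpf was higher in the colon, at 19.5 ± 5.28 TPM against 10.5 ± 2.61 TPM in the duodenum/jejunum of BALB/cJ and 22.4 ± 6.75 TPM against 13.4 ± 2.64 TPM in that of C57BL/6J (0.82 ± 0.21 and 0.67 ± 0.19), and after RLE scaling it was called in BALB/cJ only (0.47 and 0.34). Kif20a in BALB/cJ (0.60 ± 0.16) and Cdc20 in C57BL/6J (0.59 ± 0.20) were not called after it. Of the markers, 10 of 10 for smooth muscle were higher in the colon in both strains (3331 to 4856 TPM in the colon against 393.7 to 1049 TPM in the duodenum/jejunum of BALB/cJ, and 4371 to 5398 TPM against 495.4 to 1407 TPM in C57BL/6J), and of 10 epithelial markers 8 were higher and 1 lower in both. Of 11 T cell markers 1 was higher and 5 lower in BALB/cJ, and 0 higher and 10 lower in C57BL/6J. Of 15 B cell markers 4 were higher and 0 lower in BALB/cJ, and 1 higher and 6 lower in C57BL/6J. Of 10 pancreas markers 1 was higher and 0 lower in BALB/cJ, and 0 higher and 9 lower in C57BL/6J. The part of these markers was not tested.

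**Figure D5:**
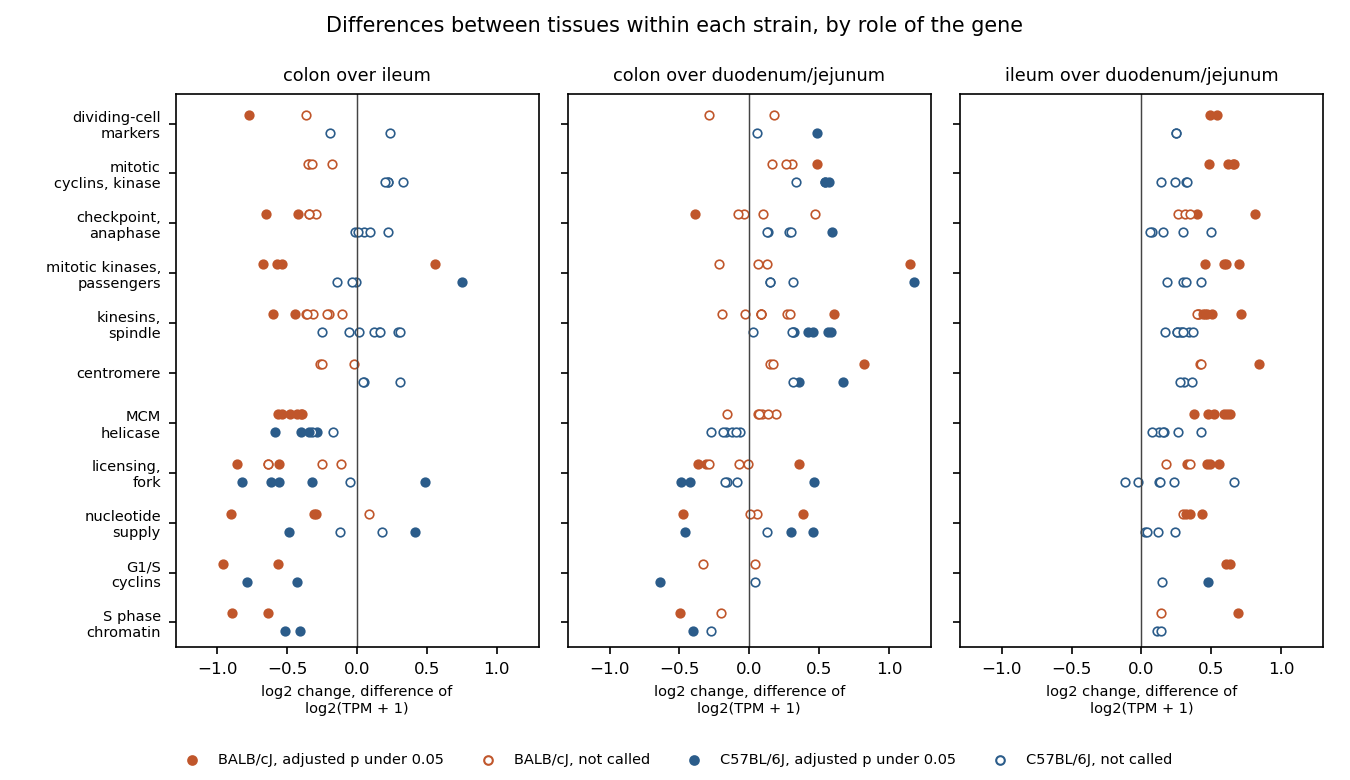
Log2 change of TPM + 1 between tissues (x axis) of each of the 46 genes by role (down the page), with BALB/cJ above C57BL/6J in each row and filled points for an adjusted p under 0.05, on the TPM scale. Helicase, G1/S cyclin and chromatin genes lie left of 0 for colon over ileum in both strains, and Plk1 is the point farthest right in the first and second panels.

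The ileum was above the duodenum/jejunum for most genes in BALB/cJ. There 36 of 46 were higher and 0 lower (41 and 0 at an unadjusted p under 0.05; background 35.5% and 7.63%), with a median log2 change of 0.47 against 0.20 over all genes, and 13 were higher and 0 lower after RLE scaling. Without the libraries of C57BL/6J mouse 2, which share the fit, 42 were higher and 0 lower in BALB/cJ. In C57BL/6J 1 was higher and 0 lower (9 and 0 unadjusted; background 5.54% and 5.79%), 2 with the mouse as a block, and 19 without the libraries of mouse 2. Cdc20, the activator of the anaphase-promoting complex, was at 28.8, 41.4 and 57.3 TPM in the ileum and 16.9, 21.6 and 29.8 TPM in the BALB/cJ duodenum/jejunum, where the lowest ileum library lay under the highest of the other tissue (0.81 ± 0.22, adjusted p 0.00261). Cenpf (0.84 ± 0.21) and the cytokinesis kinesin gene Kif20a (0.71 ± 0.16) rose too. In C57BL/6J the 1 call was Ccne1, at 6.52 ± 1.92 TPM in the ileum against 4.30 ± 0.85 TPM in the duodenum/jejunum (0.47 ± 0.16, adjusted p 0.0419). B cell markers moved with this contrast: 14 of 15 were higher in the ileum in BALB/cJ (150.2 to 306.2 against 54.5 to 88.5 TPM) and 12 of 15 in C57BL/6J (50.1 to 206.8 against 54.0 to 102.0 TPM). The lowest ileum and the highest duodenum/jejunum value of C57BL/6J were those of mouse 2, and without it the ranges were 94.6 to 206.8 and 54.0 to 63.6 TPM, with no overlap. Pancreas markers were lower in the ileum for 9 of 10 in BALB/cJ (3.87 to 6.21 against 5.04 to 5509 TPM) and 10 of 10 in C57BL/6J (5.33 to 7.99 against 6.59 to 6109 TPM). T cell markers were higher for 8 of 11 in BALB/cJ and 2 of 11 in C57BL/6J. Of 10 smooth muscle markers 10 were higher in BALB/cJ and 0 in C57BL/6J, of 10 epithelial markers 8 and 7, and of 11 crypt stem cell markers 3 and 0. Between colon and ileum, 12 of 15 B cell markers were lower in the colon in both strains, as were 10 of 11 T cell markers in BALB/cJ and 11 of 11 in C57BL/6J, while 9 of 10 smooth muscle markers were higher in BALB/cJ and 10 of 10 in C57BL/6J. The part of these markers in the tissue differences was not tested. Contrasts of 1 strain share libraries, so their counts are not independent of each other.

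Reads of near-identical copies can be split by the quantification. Entries named as pseudogenes of Ccnb1, Kif4 and Pcna stayed under 1 TPM in every library, and Ccnb2-ps averaged 1.10 to 1.63 TPM per group, against 17.9 to 36.5 TPM for Ccnb2.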

How the data were processed

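RNA was sequenced from 3 gut tissues of 13 mice after depletion of ribosomal RNA, per the labels' protocols. Per the submitters' processing notes, kallisto 0.44.0 and GRCm38 were used, while no source used here names the transcript annotation. The authors deposited log2(TPM + 1) values in a table for each tissue. Turned back, a library sums to 978462 to 994059 TPM. TPM keeps no read depth, so intervals for counting error were not computed, and the errors printed reflect differences among mice, part of which may be technical. From each table, 26 entries named by a date were left out, 0 columns belonged to other samples, and 0 pairs of libraries were identical.

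Strains were compared within a tissue, BALB/cJ over C57BL/6J, with limma 3.58.1 (R 4.3.3) and a variance trend on log2(TPM + 1), for entries at 1 TPM or more in 6 or more libraries. Tissues and the strain differences between tissues were compared in 1 limma fit of 39 libraries with 6 group means. P-values are 2-sided and adjusted by Benjamini-Hochberg over all genes tested, and genes under 0.05 were called. A fold is a ratio of mean TPM; a log2 change of TPM + 1 understates the change of low genes. RLE scaling divided TPM by a median-ratio factor per library. The fits were also tested on simulated data. The 3 tissues of a mouse come from the same animal; deviations of same-mouse libraries correlated at medians of 0.14 (colon and ileum), 0.10 (colon and duodenum/jejunum) and 0.24 (ileum and duodenum/jejunum), each over 13 pairs.

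The members and lists were chosen with earlier results of these data known. Named were the 6 called members with the largest change per direction and strain comparison, 3 per direction and tissue comparison, the highest and lowest member, and 3 called genes per pathway list by adjusted p; other genes named were chosen after their values were seen. Of 106 pathway genes 104 were listed and 102 tested, and of 92 markers 90 were listed. Positions are from GENCODE M21 on GRCm38, promoters from RefSeq on GRCm38.p6. Other alternatives were a pseudocount of 0.1, no filter, no variance trend, a replicate block, marker covariates, and leaving out mice, of which leaving out each mouse in turn was added after seeing the data.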

Additional observations from a re-analysis of the deposited data

Results flagged for a closer look

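A library was flagged where its distance from the nearest other library was large for the range of its group. Of 72 group means tested, of gene roles and of all members, 13 were flagged, and chance flags about 1 in 20 independent means. These means share libraries, and that of all members pools the roles. The 72 are therefore not independent, and the 13 flags cannot be set against that rate. Most flags fell on the ileum library of C57BL/6J mouse 2, the library whose region markers went against its name. It was the lowest of its group for the mean log2(TPM + 1) of all 46 genes (3.89), the dividing-cell markers (5.64), the mitotic cyclins and their kinase (4.19), the checkpoint and anaphase genes (3.70), the mitotic kinases and passengers (3.91), the kinesin and spindle genes (3.58), the centromere genes (3.69), the MCM helicase (4.01), the licensing and fork genes (3.26) and nucleotide supply (4.61). Of single genes 34 of 46 had such a gap in that library, and the share over all genes was not computed. BALB/cJ mouse 2 stood high in the ileum for the MCM helicase (5.23). In the duodenum/jejunum BALB/cJ mouse 1 stood low for the mitotic cyclins and their kinase (4.29) and C57BL/6J mouse 7 stood high for the checkpoint and anaphase genes (4.75).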

How the results depend on the processing

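Counts of members called moved by over 1.5 times in these cases. Strain difference in the colon (26): 13 without BALB/cJ mice 3 and 5, 0 with epithelial and 1 with B cell markers as a covariate. Ileum (1): 3 without the small intestine libraries of C57BL/6J mouse 2, 0 without BALB/cJ mice 3 and 5, 4 with B cell markers, and 0 with a replicate block of the mouse number. Duodenum/jejunum (3): 1 without BALB/cJ mice 3 and 5, 1 with either covariate and 0 with the replicate block. A number shared by the strains marks different animals, and deviations of such libraries correlated at -0.31 to 0.21. Libraries of the same mouse correlated at -0.16 to 0.38. The ranges overlap, so these values cannot decide whether the numbers mean any pairing across strains. In the colon the replicate block gave 21. Without 1 mouse the counts were 19 to 27, 0 to 3 and 1 to 4. RLE scaling gave 38 for colon against ileum in BALB/cJ (25), 21 and 13 for colon and ileum against duodenum/jejunum in BALB/cJ (11 and 36), and 2 for ileum against duodenum/jejunum in C57BL/6J (1), where no filter gave 0, the replicate block of the mouse 2 and leaving out mouse 2 gave 19. The mouse block gave 1 for the strain difference in colon minus that in ileum (0). For colon against duodenum/jejunum, RLE scaling turned the sign of small positive changes that were not called and made them called lower: Mcm7 (-0.29), Rrm1 (-0.30) and Tk1 (-0.36) in BALB/cJ, and Top2a (-0.29), Kif23 (-0.31) and Rrm1 (-0.21) in C57BL/6J; Tk1 in C57BL/6J was called higher before it and not called after it (-0.037). Over all genes the strain counts were 880 and 508 with epithelial and B cell markers in the colon (3986), and in the ileum (3169) 1803 with RLE scaling (912 higher and 891 lower, against 2677 and 492), 1812 without BALB/cJ mice 3 and 5, 929 with the block, 1628 with B cell markers and 1948 without BALB/cJ mouse 5; ileum against duodenum/jejunum in C57BL/6J (1940) gave 3540 without mouse 2, and the strain difference in ileum minus that in duodenum/jejunum (672) gave 111 with RLE scaling and 391 with no filter. The causes were not tested. Depth is unknown.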
